A study of Homo sapiens with 4 samples.

Results

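The genes described here are those of the circadian clock and of BHLHE40, a repressor tied to it: 10 gene symbols (BHLHE40, PER1, PER2, PER3, CRY1, CRY2, CLOCK, NR1D1, NR1D2 and CSNK1E), and every array probe set whose platform annotation gave exactly one of them. That rule took 18 of 54675 probe sets, which read 8 of the 10 genes. PER1 and NR1D1 had no such probe set, because each of theirs was listed together with another gene, and those are given separately as joint signals. The samples were U937 cells, an established human line from a lymphoma of monocytic character, which had received shikonin, a naphthoquinone from gromwell roots, at 100 nM with incubation for 3 h (2 samples), or dimethyl sulfoxide (DMSO), the solvent used as control (2 samples). The labels gave no other genotype or agent, no duration for DMSO and no clock time of harvest. Whether the samples of a group were separate cultures was not stated, so the p-values here measure only their spread, which may be technical.

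In the mammalian clock, the transcription factors CLOCK and BMAL1 pair up on E-box elements and switch on the PER and CRY genes, whose proteins return to the nucleus and repress CLOCK and BMAL1. A second loop runs through the nuclear receptors REV-ERB alpha and beta, encoded by NR1D1 and NR1D2, which repress BMAL1, while ROR receptors activate it. Casein kinases such as the product of CSNK1E phosphorylate PER proteins and set their stability. BHLHE40, also called DEC1, is a basic helix-loop-helix repressor that binds E-boxes, competes with CLOCK and BMAL1 there and is itself a target of them, of hypoxia and of growth signals. The comparison asked which of these transcripts shikonin-treated and solvent-treated cells held at different levels, at a single time, so no rhythm was measured.

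The 4 arrays had median signals of 60.5 to 63.7, and their log2 values correlated at 0.972 to 0.980. Of 10 myelomonocytic markers with a single-gene probe set, 9 lay above the 40th percentile on all 4 arrays, among them LYZ (9151 and 9585 after shikonin, 8779 and 8599 in DMSO). Of 5 T cell markers, 1 lay above it on all 4 arrays (CD2, 48.0 and 41.0 after shikonin, 51.1 and 62.2 in DMSO), and of 4 B cell markers with such a probe set, 2 did (PAX5 and CD79A). Of the 4 epithelial markers 1 lay above it on all 4 arrays, and so did the 1 erythroid marker with such a probe set. The summed T cell markers came to 115 and 163 after shikonin and to 244 and 199 in DMSO, and their part in the results was not tested. The summed B cell markers came to 688 and 625 after shikonin and to 615 and 652 in DMSO. For the epithelial markers the sums were 119 and 167 after shikonin and 130 and 205 in DMSO. Over the 32768 probe sets tested with limma, 1286 (3.92%) were called higher after shikonin and 1729 (5.28%) were called lower, with an adjusted p under 0.05. Of the 10 myelomonocytic markers, 1 was called lower and none higher. That was LYN, with 2858 and 2916 after shikonin, against 3479 and 3602 in DMSO (log2 change -0.29, limma adjusted p = 0.0202).

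BHLHE40 was the gene of the 8 that fell, and it did so on both of its probe sets. The brighter one, 201170_s_at, had signals of 1640 and 1717 after shikonin, against 4030 and 3853 in DMSO. The other, 201169_s_at, had 340 and 361 after shikonin, against 1084 and 1175 in DMSO. On both probe sets the shikonin arrays lay far below the DMSO arrays, and the arrays of a group lay close together. Means were 1679 ± 54.5 after shikonin and 3942 ± 126 in DMSO for the first (SD, n = 2 each), which made BHLHE40 2.34-fold lower there (log2 change -1.23, SE 0.067, limma adjusted p = 1.68e-05). The second gave 350.2 ± 14.7 after shikonin and 1129 ± 64.6 in DMSO (SD, n = 2 each), 3.16-fold lower (log2 change -1.66, SE 0.11, limma adjusted p = 4.27e-05). The 95% intervals of these log2 changes ran from -1.38 to -1.07 and from -1.90 to -1.42, so the probe sets did not give the same size. Ranked by size among the 1729 probe sets called lower, 201169_s_at stood at place 39 and 201170_s_at at place 107.

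These 2 were the only calls among the 16 probe sets of the 8 genes that passed the filter on dim probe sets, and they come from 1 gene. None of the 16 was called higher. Over all tested probe sets, 5.28% were called lower and 3.92% higher. The shikonin arrays lay wholly below the DMSO arrays for 4 of the 16, BHLHE40 included, and wholly above them for 4, while 26.1% and 27.0% of all tested probe sets did so. Both counts, with BHLHE40 included, were near these shares. Of the 14 probe sets of the other genes, 2 lay wholly below and 4 wholly above. The median log2 change over the 16 was -0.03, beside 0.01 over all tested probe sets. The calls depended on how the variance was modelled: with a single variance prior in place of a trend on signal, limma called no probe set of the array (5970 had an unadjusted p under 0.05), and BHLHE40 had an adjusted p of 0.150 on both probe sets.

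**Figure D1:**
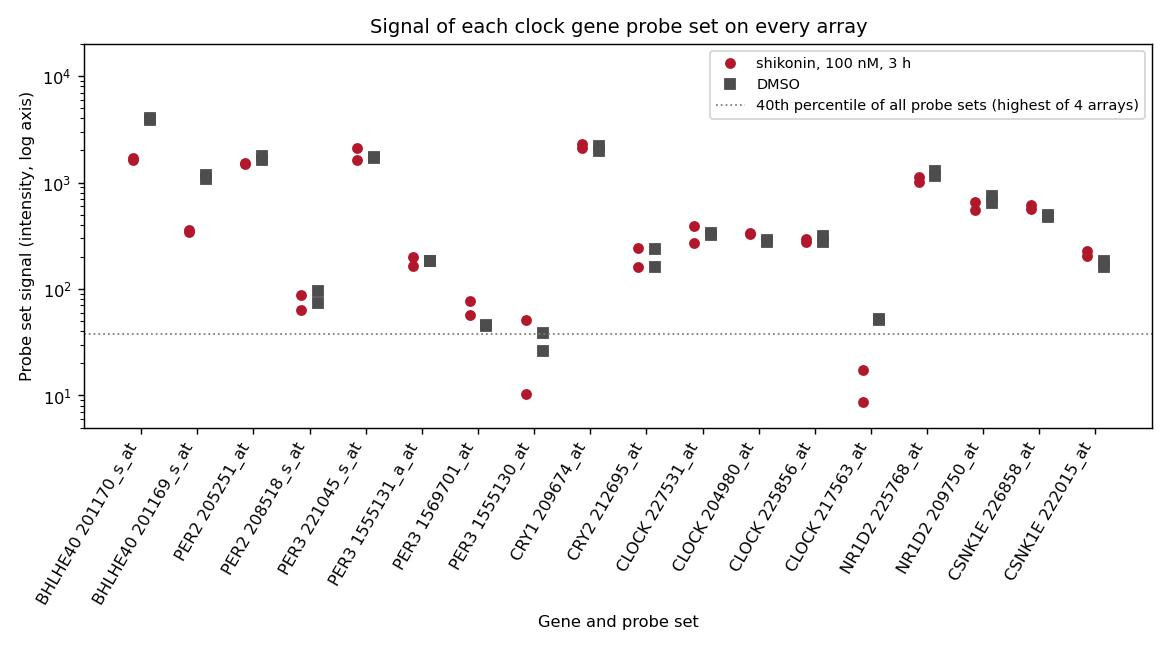
Signal of each of the 18 probe sets (log axis, arbitrary intensity units) on the 2 shikonin arrays (circles) and the 2 DMSO arrays (squares), with the 40th percentile of all probe sets as a dotted line (37.4, the highest of the 4 arrays). Both BHLHE40 probe sets stand clearly lower after shikonin, at 1640 and 1717 and at 340 and 361, while most other points of the 2 groups lie close to each other or overlap.

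Regulatory sequence upstream of the gene start is shown for the 3 genes whose promoter window holds the palindromic E-box, CACGTG, because this is the element that CLOCK, BMAL1 and BHLHE40 bind. The sequences are from RefSeq (GRCh38.p14), run 5′ to 3′ on the strand of the gene over the 250 bases before its start, and have each CACGTG in capitals. The windows are chr3:4979187-4979436 (plus strand) for BHLHE40, chr3:23945871-23946120 (plus strand) for NR1D2 and chr17:8152405-8152654 (minus strand) for PER1.
BHLHE40: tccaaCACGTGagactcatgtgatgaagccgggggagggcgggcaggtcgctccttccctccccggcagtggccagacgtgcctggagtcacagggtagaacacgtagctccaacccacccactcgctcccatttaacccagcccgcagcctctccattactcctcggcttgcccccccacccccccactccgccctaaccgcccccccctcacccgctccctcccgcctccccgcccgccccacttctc
NR1D2: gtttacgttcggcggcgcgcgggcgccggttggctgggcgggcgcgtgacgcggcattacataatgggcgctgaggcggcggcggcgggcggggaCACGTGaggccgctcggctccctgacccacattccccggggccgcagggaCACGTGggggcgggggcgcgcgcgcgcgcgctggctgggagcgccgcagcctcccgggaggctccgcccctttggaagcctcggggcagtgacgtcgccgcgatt
PER1: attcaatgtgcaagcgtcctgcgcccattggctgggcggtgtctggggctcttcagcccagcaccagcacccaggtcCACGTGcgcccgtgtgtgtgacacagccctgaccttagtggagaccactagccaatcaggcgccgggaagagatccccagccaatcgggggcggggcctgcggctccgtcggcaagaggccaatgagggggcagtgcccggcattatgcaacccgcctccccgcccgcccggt

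All 10 genes matched a promoter window of 300 bases (250 before and 50 after the start), with 15 windows in all, since some genes have several starts. CACGTG stood in 3 of the 15, against 7.26% of all 35116 windows, and began 245 bases before the start in BHLHE40, 155 and 105 in NR1D2 and 173 in PER1. The shorter core of the hypoxia response element, ACGTG on either strand, which every CACGTG contains, stood in 10 of the 15 windows, against 21.4% of all. BHLHE40 had it also at 174 and 149 bases before the start, apart from the E-box. AGGTCA, the core site of REV-ERB and ROR receptors, stood in 4 of the 15 windows (13.8% of all), in CRY2, PER1 and CSNK1E. TGACGT, the core of the cAMP response element, stood in 1, that of NR1D2 (7.98% of all). Both strands were searched. The values that go with the printed windows differed: BHLHE40 was called lower, NR1D2 was not called on either probe set, and PER1 was read only jointly with a microRNA gene. A match describes the letters of a window and was not tested as a binding site.

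CLOCK, the activator that pairs with BMAL1, was read by 4 probe sets, of which 3 were tested and none was called. The probe set 204980_at had signals of 333 and 330 after shikonin, against 291 and 276 in DMSO, without overlap (log2 change 0.22, 95% interval -0.10 to 0.54, limma adjusted p = 0.3998). On 227531_at the signals were 270 and 388 after shikonin, against 324 and 339 in DMSO. On 225856_at they were 296 and 277 after shikonin, against 316 and 279 in DMSO. The DMSO values of 227531_at lay between its shikonin values, and the groups overlapped on 225856_at too. The log2 changes of these were -0.03 (95% interval -0.44 to 0.38) and -0.05 (-0.39 to 0.29), so the 3 tested probe sets did not share a direction.

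The fourth CLOCK probe set, 217563_at, stood apart from the others. Its signals were 17.3 and 8.75 after shikonin, against 51.7 and 51.6 in DMSO. Both shikonin arrays were below the 40th percentile of their array and both DMSO arrays above it, and the low overall mean kept the probe set out of the main test. With no filter on dim probe sets its log2 change was -1.45 (SE 0.50), and limma did not call it (adjusted p = 0.197). The brighter CLOCK probe sets showed nothing of this size.

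The PER genes encode the repressors whose build-up closes the main loop. For PER2 the bright probe set 205251_at gave 1511 and 1500 after shikonin, against 1782 and 1631 in DMSO. Both shikonin arrays were the lower ones, but the change was small and not called (log2 change -0.18, 95% interval -0.35 to -0.0012, limma adjusted p = 0.203). The dim PER2 probe set 208518_s_at gave 87.4 and 63.1 after shikonin, against 73.2 and 94.8 in DMSO, with overlap and a wide interval (-0.88 to 0.59).

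PER3, the PER gene least needed for rhythm in mice, had 4 probe sets, 3 of them tested. The brightest, 221045_s_at, gave 2098 and 1612 after shikonin, against 1710 and 1727 in DMSO (log2 change 0.10, 95% interval -0.16 to 0.35). The spread lay within shikonin: 1 of its arrays was above and the other below both DMSO arrays. The probe set 1555131_a_at behaved in the same way, with 198 and 163 after shikonin, against 185 and 183 in DMSO (log2 change -0.03). On 1569701_at the signals were 76.6 and 57.3 after shikonin, against 46.3 and 45.3 in DMSO, without overlap but not called (log2 change 0.45, 95% interval -0.40 to 1.31, limma adjusted p = 0.521). The fourth, 1555130_at, was not tested, with 10.3 and 51.6 after shikonin, against 26.0 and 38.9 in DMSO.

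The cryptochromes CRY1 and CRY2, the partners of PER proteins in repression, had 1 probe set each. CRY1 gave 2308 and 2122 after shikonin, against 2193 and 1995 in DMSO (log2 change 0.08, 95% interval -0.10 to 0.26, limma adjusted p = 0.592). The groups overlapped, and the interval is narrow enough to leave out a change of the size seen in BHLHE40. CRY2 gave 162 and 244 after shikonin, against 161 and 235 in DMSO (log2 change 0.03, 95% interval -0.54 to 0.60). Here each group held 1 low and 1 high array, so the spread within a group was much larger than the difference between groups.

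NR1D2, which encodes REV-ERB beta, the repressor of BMAL1, was read by 2 probe sets that gave nearly the same change. On 225768_at the signals were 1119 and 1006 after shikonin, against 1269 and 1162 in DMSO, without overlap. On 209750_at they were 660 and 550 after shikonin, against 748 and 637 in DMSO, with overlap. Both log2 changes were -0.19, with 95% intervals from -0.40 to 0.02 and from -0.48 to 0.10, and neither was called (limma adjusted p = 0.243 and 0.409). With 1 array left out the change ran from -0.27 to -0.12 on 225768_at and from -0.32 to -0.064 on 209750_at, smallest without shikonin 2 and largest without shikonin 1 on both.

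CSNK1E, the gene of casein kinase 1 epsilon, had 2 single-gene probe sets, and on both the shikonin arrays were the higher ones without overlap. On 226858_at the signals were 613 and 567 after shikonin, against 496 and 473 in DMSO (log2 change 0.28, 95% interval 0.02 to 0.53, limma adjusted p = 0.166). On 222015_at they were 202 and 227 after shikonin, against 183 and 162 in DMSO (log2 change 0.30, 95% interval -0.13 to 0.72, limma adjusted p = 0.379). Neither was called. Of the 3 probe sets listed for CSNK1E together with the read-through gene TPTEP2-CSNK1E, 1 lay wholly on the other side: 225756_at gave 609 and 573 after shikonin, against 728 and 690 in DMSO (log2 change -0.26, limma adjusted p = 0.162), and was not called. The groups overlapped on the other 2, with log2 changes of -0.02 on 202332_at and 0.02 on 234943_at.

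Joint probe sets carried the remaining signal of PER1 and NR1D1 and assign it to neither gene of a pair. Of the 10 joint probe sets that name a member, 7 were tested, 1 was called lower and none higher, beside 5.28% and 3.92% of all tested probe sets. The 31637_s_at signal, listed for NR1D1 and THRA (a thyroid hormone receptor gene that overlaps it on the opposite strand), was 307 and 274 after shikonin, against 434 and 492 in DMSO. It was lower on both shikonin arrays (log2 change -0.66, SE 0.14, limma adjusted p = 0.0212) and lost the call without DMSO 2 (adjusted p = 0.105) or without shikonin 2 (0.0735). The dimmer NR1D1 and THRA probe set 204760_s_at had 61.0 and 104 after shikonin, against 123 and 118 in DMSO, and was not called (log2 change -0.53, and -0.19 without shikonin 1).

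The 2 tested probe sets listed for PER1 and MIR6883 were lower on both shikonin arrays without being called. The probe set 36829_at gave 270 and 252 after shikonin, against 349 and 395 in DMSO (log2 change -0.49, 95% interval -0.82 to -0.16, limma adjusted p = 0.0721). On 202861_at the signals were 218 and 199 after shikonin, against 315 and 261 in DMSO (log2 change -0.44, 95% interval -0.83 to -0.05, limma adjusted p = 0.153). The other 2 were dim and not tested. On 242832_at both shikonin arrays were the higher ones (12.0 and 12.6, against 9.30 and 9.52 in DMSO). The groups overlapped on 244677_at, with 42.6 and 5.59 after shikonin, against 13.2 and 32.3 in DMSO.

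**Figure D2:**
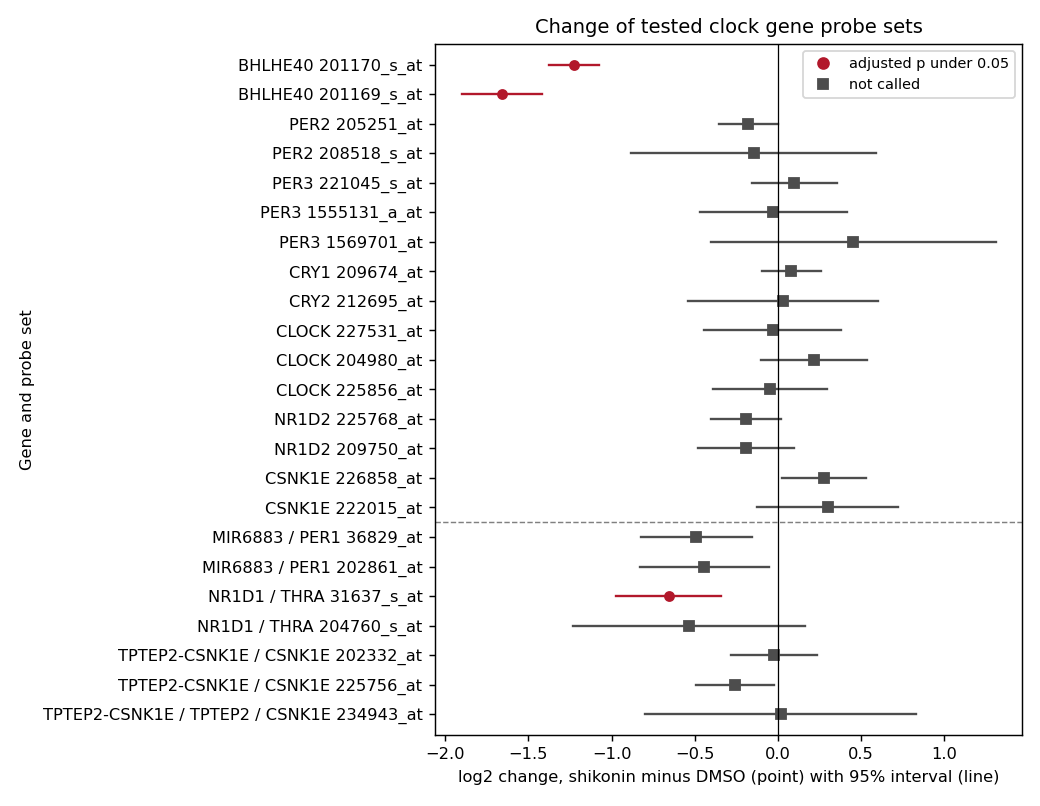
Log2 change of shikonin minus DMSO (x axis) with its 95% interval from limma for the 16 tested probe sets of single genes (above the dashed line) and the 7 tested joint ones (below it), where circles are called at an adjusted p under 0.05 and squares are not. BHLHE40 lies at -1.23 and -1.66, and all other single-gene intervals but those of PER2 205251_at and CSNK1E 226858_at include 0.

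A wider list of 41 other clock genes, chosen with earlier results of these data known, placed these values among their partners. With each gene read by its brightest single-gene probe set, 37 were tested, 2 rose and 4 fell. Among all 13554 genes tested, 5.05% were called higher and 6.65% lower. As the list was chosen with earlier results known, these shares are only a scale, and its counts were not tested against them. The median log2 change of the list was 0.01, beside 0.003 over all genes.

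BMAL1, the partner of CLOCK and the gene that REV-ERB proteins repress, was among those that fell. Its signals on 209824_s_at were 280 and 262 after shikonin, against 470 and 432 in DMSO, 1.64-fold lower (log2 change -0.71, SE 0.14, limma adjusted p = 0.0133). The other BMAL1 probe set, 210971_s_at, was lower on both shikonin arrays as well (255 and 274, against 347 and 401 in DMSO), with a log2 change of -0.48 that was not called (limma adjusted p = 0.0783). The call on 209824_s_at was lost without DMSO 1 (adjusted p = 0.0665). The BMAL1 paralog BMAL2, named after its values were seen, was not called on its brightest probe set (log2 change 0.08), while 224204_x_at, 1 of its dimmer ones, was called lower, with 75.5 and 66.8 after shikonin, against 193 and 203 in DMSO (log2 change -1.36, limma adjusted p = 0.00911). The CLOCK paralog NPAS2 was dim, with 75.7 and 54.2 after shikonin, against 40.8 and 20.6 in DMSO, and was not called (log2 change 0.91, 95% interval -0.14 to 1.96).

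DBP, a PAR bZIP factor that CLOCK and BMAL1 activate through E-boxes, fell too. Its signals were 963 and 908 after shikonin, against 1308 and 1362 in DMSO, 1.42-fold lower (log2 change -0.51, SE 0.085, limma adjusted p = 0.00693). NFIL3, a repressor that competes with DBP for D-box elements, had 635 and 639 after shikonin, against 655 and 763 in DMSO, and was not called (log2 change -0.15, 95% interval -0.40 to 0.10).

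SIRT1, a NAD-dependent deacetylase that acts on clock proteins, had 1028 and 933 after shikonin, against 1694 and 1488 in DMSO. It was 1.61-fold lower (log2 change -0.69, SE 0.095, limma adjusted p = 0.0029). NAMPT, which makes the NAD precursor that SIRT1 depends on, was not called (log2 change -0.16, 95% interval -0.32 to -0.01, limma adjusted p = 0.189). Its dimmer probe sets 1555167_s_at and 217738_at were lower on both shikonin arrays as well. Their log2 changes of -0.33 and -0.26 were not called (limma adjusted p = 0.0586 and 0.140). The groups overlapped on 243296_at (log2 change 0.007).

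RORB, a ROR receptor known from retina and brain, had 538 and 643 after shikonin, against 1064 and 770 in DMSO (log2 change -0.61, limma adjusted p = 0.0411). A further RORB probe set, 242385_at, was called lower as well (log2 change -1.23). The call on the brightest was lost without DMSO 1 (log2 change -0.38, adjusted p = 0.170), without shikonin 1 (0.133), with no filter on dim probe sets (0.104) and with quantile normalization (0.0632).

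The 2 genes that rose did so slightly: SKP1, a subunit of the SCF ubiquitin ligases, by a log2 change of 0.19 (limma adjusted p = 0.0396) and SFPQ, an RNA-binding partner of PER complexes, by 0.21 (limma adjusted p = 0.0327). SKP1 had 17345 and 17222 after shikonin, against 14982 and 15351 in DMSO. Its dimmer probe set 200711_s_at was called higher too, by a log2 change of 0.36 (limma adjusted p = 0.00936). There the signals were 3003 and 3127 after shikonin, against 2368 and 2388 in DMSO. Neither 207974_s_at (log2 change 0.18) nor 200719_at (0.02) was called. Another SFPQ probe set, 214016_s_at, went the other way and was called lower (log2 change -0.39). Leaving out any 1 of the 4 arrays ended the calls of SKP1 and SFPQ on their brightest probe sets.

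USP2, a deubiquitinase and also named after its values were seen, was lower on both shikonin arrays of its brightest probe set (89.0 and 91.1, against 144 and 166 in DMSO) without being called (log2 change -0.72, limma adjusted p = 0.0999). Its dim probe set 207213_s_at was called lower, with 15.8 and 11.7 after shikonin, against 86.3 and 82.5 in DMSO (log2 change -1.999, limma adjusted p = 0.0293). Those shikonin signals lay below the 40th percentile of their arrays.

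Beside shares of 5.05% higher and 6.65% lower over all genes, none of the 10 kinases and phosphatases of the list was called. Among them was CSNK1D, the close relative of CSNK1E (2396 and 2681 after shikonin, against 2435 and 2517 in DMSO; log2 change 0.03, 95% interval -0.14 to 0.20). BHLHE41, the paralog of BHLHE40, was not called either: it had 266 and 337 after shikonin, against 350 and 290 in DMSO (log2 change -0.09, 95% interval -0.48 to 0.30), and its sign turned without DMSO 1 (0.044) or shikonin 1 (0.077). That interval does not reach either value measured for BHLHE40, though the difference between the paralogs was not tested. The dimmer BHLHE41 probe set 231243_s_at gave 67.0 and 84.2 after shikonin, against 58.0 and 129 in DMSO. The groups overlapped there, and the log2 change of -0.19 had a much wider 95% interval (-1.07 to 0.69).

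**Figure D3:**
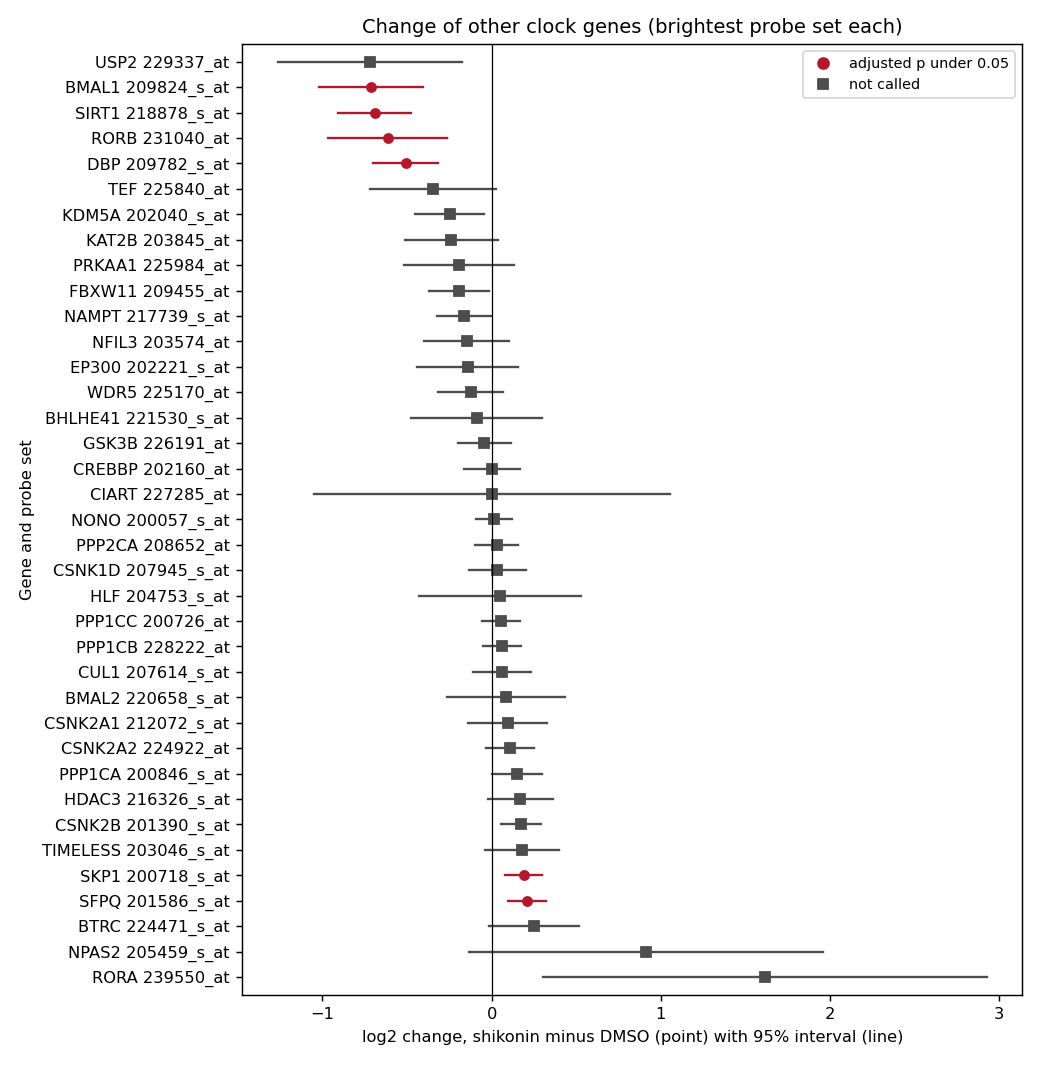
Log2 change of shikonin minus DMSO (x axis) with its 95% interval from limma for the 37 tested genes of the wider clock list, ordered by size, where circles are called at an adjusted p under 0.05 and squares are not. BMAL1, SIRT1, RORB and DBP lie between -0.71 and -0.51, SKP1 and SFPQ at 0.19 and 0.21, and the wide intervals belong to dim genes such as RORA and NPAS2.

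The 5 genes most like BHLHE40 over the 4 arrays were LINC02806, a long non-coding RNA, ABCA13, an ABC transporter, SDCCAG8, a centrosomal protein, PTPRE, a receptor-type tyrosine phosphatase, and NCOA7, a nuclear receptor coactivator. Likeness was the Euclidean distance between log2 values centred on each probe set's own mean, over 13554 genes, and ran from 0.038 for LINC02806 to 0.11 for NCOA7. NCOA7 had 1685 and 1606 after shikonin, against 3850 and 3579 in DMSO. PTPRE had 545 and 608 after shikonin, against 1337 and 1297 in DMSO. With 4 arrays in 2 groups, such a distance mostly picks genes with a similar change (log2 changes of -1.23 to -1.17) and little spread within groups.

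**Figure D4:**
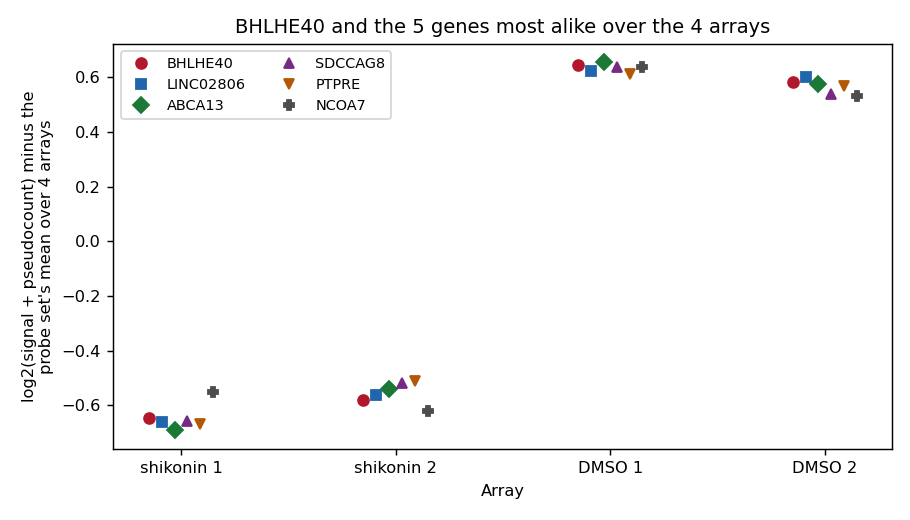
Log2(signal + pseudocount) minus the probe set's own mean (y axis) on each of the 4 arrays for BHLHE40 (201170_s_at) and the 5 genes nearest to it. All 6 lie between -0.7 and -0.5 on the shikonin arrays and between 0.5 and 0.7 on the DMSO arrays.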

How the data were processed

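Biotin-labelled cRNA from total RNA of U937 cells was read on Affymetrix U133 Plus 2.0 arrays, per the labels' protocols and the series text. The authors' deposited values are linear probe set intensities. No source used here gives the software that summarised them, and all sample columns were used. Arrays were grouped by the treatment in their labels. Values were converted to log2(signal + 9.94), the pseudocount being the 20th percentile of all values, so changes of dim genes are understated. Control probe sets and the 40% with the lowest mean log2 value were left out, which kept 32768. Differences (shikonin minus DMSO) were tested two-sided with limma 3.58.1 in R 4.3.3 (lmFit, eBayes with a variance trend on signal; 2 residual and 7.1 prior degrees of freedom), adjusted by Benjamini-Hochberg over all 32768 and called at 0.05. An exact permutation test of 2 against 2 arrays cannot go below p = 0.333. The procedure was tested on simulated data whose noise followed a variance trend on signal, so that test could not check the choice of variance prior. The number of arrays limits the precision.

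Gene names came from the platform annotation, and 41097 probe sets had 1 symbol, 1801 several and 11777 none. Genes with several probe sets in the wider list were read by the brightest by mean log2 value. Genes named were all members, the called genes of that list with BMAL1, NPAS2, BHLHE41, NFIL3, DBP, CSNK1D and NAMPT, and the 5 nearest to BHLHE40. RORA, PAX5, CD79A, LYZ, LYN and CD2 were named for a figure or the check of cell type. The genes and lists were chosen with earlier results of these data known. Alternatives concerned pseudocount, filter, normalization, variance prior, replicate block and each array left out.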

Additional observations from a re-analysis of the deposited data

How the results depend on the processing

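BHLHE40 kept its direction and its call under 10 of 11 alternatives, with log2 changes of -1.26 to -1.19 on 201170_s_at and -1.72 to -1.59 on 201169_s_at. The exception was a single variance prior (-1.23 and -1.66, adjusted p = 0.150 for both), under which limma called 0 probe sets higher and 0 lower, with 0 and 0 of the wider clock list, although 5970 probe sets had an unadjusted p under 0.05; the cause was not tested. None of the other 14 tested probe sets of the 8 genes was called in any of 152 recomputed values. In 9 of these the sign turned: CLOCK 227531_at to 0.018 with quantile normalization and 0.22 without shikonin 1, CLOCK 225856_at to 0.037 without DMSO 1, CRY2 to -0.23 without DMSO 1 and -0.25 without shikonin 2, PER2 208518_s_at to 0.021 without DMSO 2 and 0.062 without shikonin 2, PER3 221045_s_at to -0.091 without shikonin 1 and PER3 1555131_a_at to 0.11 without shikonin 2. Across the fits with 1 array left out, CLOCK 227531_at ran from -0.29 to 0.22, CLOCK 225856_at from -0.14 to 0.037, CRY2 from -0.25 to 0.31, PER2 208518_s_at from -0.35 to 0.062, PER3 221045_s_at from -0.091 to 0.29 and PER3 1555131_a_at from -0.16 to 0.11; without a turn of sign, CRY1 ran from 0.013 to 0.15, PER2 205251_at from -0.24 to -0.11, PER3 1569701_at from 0.27 to 0.63, NR1D2 225768_at from -0.27 to -0.12 and NR1D2 209750_at from -0.32 to -0.064. With quantile normalization the log2 change of SKP1 was 0.097 and that of SFPQ 0.12, neither called. Over the whole array, calls numbered 638 higher and 1111 lower with no filter on dim probe sets, where 54613 were tested, and with 1 array left out 594 to 932 higher and 1087 to 1331 lower. In the wider clock list, 0 genes rose, in place of 2, with no filter, with quantile normalization, with gene means, without _x_at and _s_at probe sets (27 genes left, 1 lower) and with any 1 array left out; 2 to 4 fell in the last. With the replicate block, calls numbered 2327 higher and 2606 lower, and BHLHE40 stayed called. The labels do not say whether the replicate numbers mark pairs, so the main fit used none. The correlation of deviations between same-numbered arrays was 0.022, a single value that does not settle the pairing. DBP and SIRT1 kept their calls under 10 of 11 alternatives, BMAL1 under 9, RORB under 6, and SKP1 and SFPQ under 4. Dim probe sets, such as CLOCK 217563_at, are the least certain, since no detection calls were used.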
